A study of Arabidopsis lyrata with 3 samples.

Results

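The 5 floral organ identity genes AP1, SEP3, AP3, AG and PI of Arabidopsis thaliana all had windows of chromatin immunoprecipitation signal for the transcription factor SEPALLATA3 (SEP3). A window was taken if it overlapped the span of 1 of these genes, or the 3000 bp on either side of it, by at least 1 bp. This rule took 20 of the 14707 windows of the A. thaliana list. The rule itself used no measured value, but the genes were chosen with earlier results of these data known. The list is a re-analysis by the authors of earlier A. thaliana samples, deposited beside 2 SEP3 ChIP libraries and 1 input DNA library from wild-type Arabidopsis lyrata inflorescences. The 2 ChIP libraries came from plants grown in different cold treatments. The A. lyrata window lists, of 93693 windows in replicate 1 and 64504 in replicate 2, were not searched for these genes. The sources used here do not state the genotype, the tissue or the number of the A. thaliana samples behind the list. For A. lyrata the antibody was one made against a peptide of A. thaliana SEP3.

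The genes studied here encode MADS-domain transcription factors, which bind DNA as dimers and as larger complexes. In the model of floral organ identity, combinations of such factors specify sepals, petals, stamens and carpels from the outside of the flower inwards. AP1 is a class A factor of sepals and petals and also sets floral meristem identity. AP3 and PI are the class B factors, which act as a pair in petals and stamens. AG is the class C factor of stamens and carpels and ends the growth of the floral meristem. SEP3 is a class E factor that joins the others in complexes, so the SEP3 gene is here the gene of the immunoprecipitated factor itself.

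The authors give for each window its limits, its summit and a score, and its width counts all bases from the first to the last. Coordinates are on TAIR10, the build named with the list. The score has no stated formula and was used to rank windows within this list and to describe them. Scores ran from 1.01 to 54.87 with a median of 1.42, and mostly fell on steps of 0.188, so that many windows shared a score. The best and last rank of a score are the first and last places that its tied windows occupy. The strand of the genes was not used here, so positions are given as the lower-coordinate or higher-coordinate side, and a window beside a gene may also lie near another gene. There is 1 list and no replicate, so a difference between 2 scores carries no error and no test.

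All 5 regions held a window, and a window was also present in 55.9% of 14551 tiles of 8185 bp, the median region length, laid end to end along the chromosomes. All 5 regions also held at least 1 of the 2000 strongest windows of the list, which 12.7% of the same tiles did. The tiles cover the chromosomes without regard to genes. The regions held 3 to 6 windows each. That amounts to 4.43 windows per 10 kb of the regions, against 1.23 per 10 kb over the whole list. The regions differed in this. Of tiles of the region's own length, 0.657% held at least as many windows as SEP3, 5.13% as AP3 and 7.15% as AP1. For PI the share was 12% and for AG 20.6%. Windows covered 9525 of the 45147 bp of the regions (21.1%), against 3.21% of chromosome length over the list. These regions lie at genes that are known from earlier work on floral development and were chosen with earlier results of these data known. The comparison therefore describes them and is no test.

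By the score of the strongest window the order was SEP3 (21.1), AG (12.34), AP3 (10.64), AP1 (6.5) and PI (4.81). Neighbours in this order were 46.6 steps of the score apart between SEP3 and AG, 9 between AG and AP3, 22 between AP3 and AP1, and 9 between AP1 and PI. With no replicate list, it was not tested whether neighbours in this order differ. The order also turns with the distance allowed: with 1000 bp on each side it was AP3 (10.64), AG (9.33), AP1 (6.5), SEP3 (3.12) and PI (2.36), and with the span alone SEP3 came last with 1.99. Of the 20 windows, 11 were among the 2000 strongest, a limit that 13.6% of all windows pass by construction; 2 of the 11 were tied at the limit, and 9 remain with tied windows left out. A score of 10 or more was reached by 3 of the 20 windows, against 212 of the 14707 of the list (1.44%). A score below 2 was held by 8 of the 20, against 11029 of the list (75%). The median score was 3.12 at these genes, against 1.42 over the list.

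**Figure D1:**
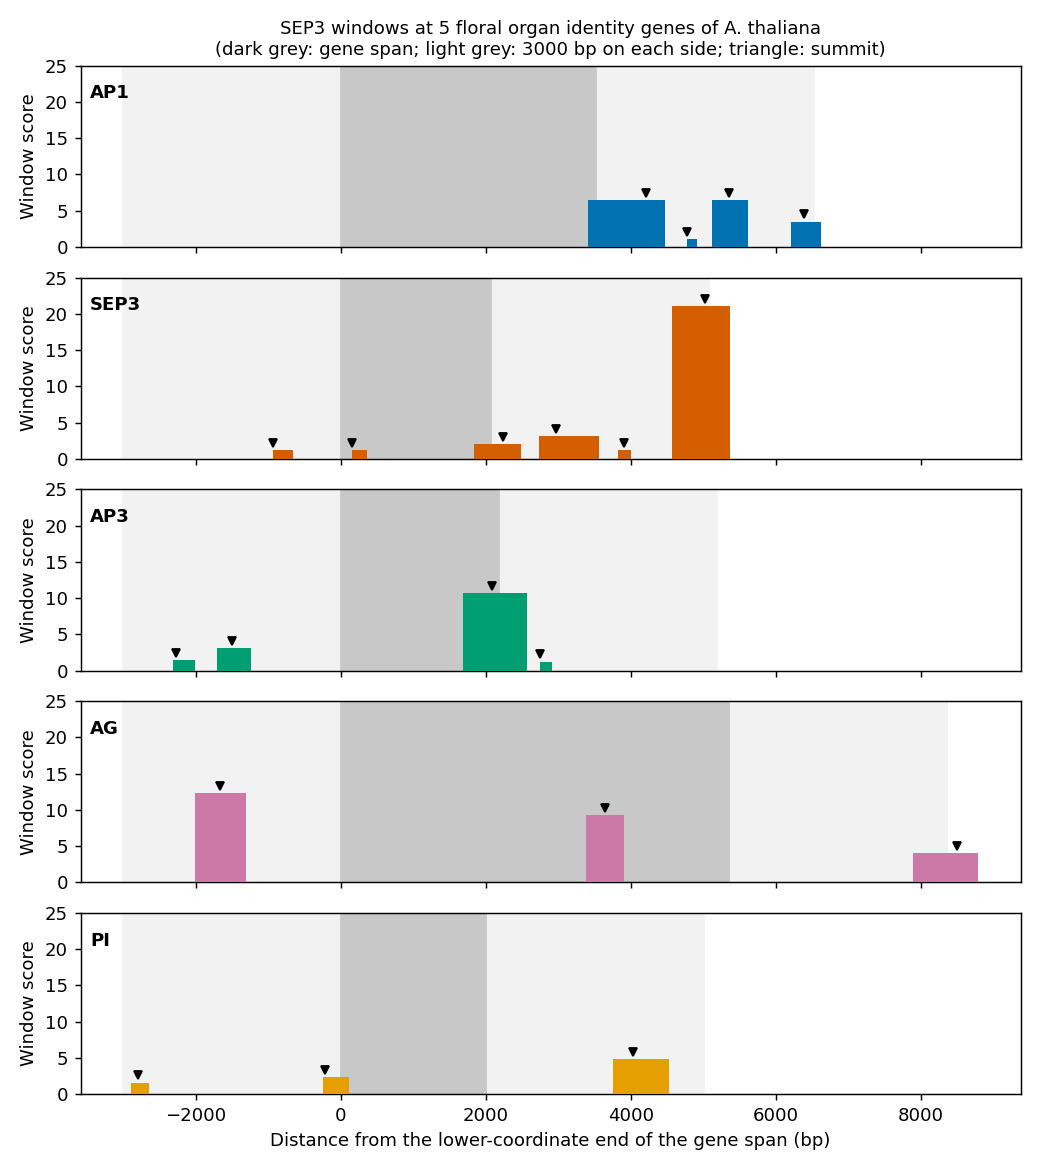
SEP3 windows at the 5 genes. Each bar is a window, drawn over its own width at the height of its score, with a triangle at the summit; the horizontal axis is the distance in bp from the lower-coordinate end of the gene span. The window of score 21.1 at SEP3 stands close to the edge of its region, the window of score 10.64 at AP3 lies across the end of the gene span, and the AG window of score 9.33 lies inside the span.

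The SEP3 gene, on chromosome 1 from 8593790 to 8595862, had the strongest window of the 5 genes and the most windows. That window ran from 8598355 to 8599151, a width of 797 bp, with its summit at 8598812. It ranked 27 of the 14707 windows with no other window at its score, and 4 among the 3865 windows of chromosome 1. The nearest window of higher score on the chromosome, with 30.22, lay 668328 bp away. Of 14753 tiles of the length of this region, 8073 bp, 0.224% held a window of at least that score. The summit lay 2950 bp beyond the higher-coordinate end of the gene and only 50 bp inside the limit of the region, and 289 bp of the window lay outside that limit.

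The other 5 windows of the SEP3 region were much weaker and were spread on both sides of the gene. The second strongest, from 8596528 to 8597346, was 819 bp wide with its summit at 8596758. It scored 3.12 and ranked from 1872 to 2042. The score of the strongest window was thus 17.98 higher than the next in its region. A window from 8595632 to 8596273 lay across the higher-coordinate end of the gene, with 231 of its 642 bp inside the span. Its summit was at 8596033, 171 bp outside the span, and its score of 1.99 ranked from 3679 to 4319.

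The 3 remaining SEP3 windows all scored 1.24, a score of 2540 windows of the list, ranks 7881 to 10420. The first ran from 8592852 to 8593125, a width of 274 bp, with its summit at 8592852 on the lower-coordinate side. The second, from 8593937 to 8594143, was 207 bp wide and lay wholly inside the gene, with its summit at 8593937. The third, from 8597614 to 8597796, was 183 bp wide with its summit at 8597700, between the windows of scores 3.12 and 21.1. The 6 windows covered 32.6% of the region, the highest share of the 5 regions. At least as many windows were met in 0.657% of tiles of the same length, the lowest such share of the 5 regions.

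AP1, on chromosome 1 from 25982576 to 25986102, had 4 windows, and all 4 summits lay on the higher-coordinate side of the gene. The strongest signal was shared by 2 windows of equal score, 6.5, ranks 539 to 568. The window nearer the gene ran from 25985983 to 25987045 and was 1063 bp wide, the widest of the 20. Its summit at 25986779 lay 677 bp beyond the gene end, and 120 bp of the window lay inside the span. The other, from 25987691 to 25988195, was 505 bp wide with its summit at 25987936, 1834 bp beyond the gene end. The pair of summits stood 1157 bp apart.

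Between these 2 windows lay the weakest window of the 20, from 25987349 to 25987492, with its summit at 25987349 and a width of 144 bp. It had a score of 1.05, the commonest of the list, held by 4259 windows of ranks 10432 to 14690. The fourth AP1 window, from 25988785 to 25989192, was 408 bp wide with its summit at 25988964. It scored 3.49 and ranked from 1584 to 1718, and 90 bp of it lay outside the region. A window of at least the score 6.5 was held by 4.62% of 12501 tiles of the length of the AP1 region, 9527 bp. Among the 3865 windows of chromosome 1 this score took ranks 134 to 142. No summit lay inside the AP1 span or on its lower-coordinate side, where the next window, of score 1.05, had its summit 9116 bp from the gene.

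AP3, on chromosome 3 from 20119140 to 20121324, had its strongest window across the higher-coordinate end of the gene. The window ran from 20120827 to 20121704, a width of 878 bp, of which 498 bp lay inside the span. Its summit at 20121228 was inside the gene, 96 bp from the end of the span, closer to a gene end than any other of the 20 summits. The score of 10.64 was shared by 6 windows of the list, ranks 192 to 197, and ranked 26 to 27 of the 2942 windows of chromosome 3. The nearest window of higher score, with 15.91, lay 482593 bp away. At least this score was held by 1.44% of 14551 tiles of 8185 bp.

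On the lower-coordinate side of AP3 there were 2 further windows. The one from 20117433 to 20117900 was 468 bp wide with its summit at 20117644, 1496 bp from the gene. Its score of 3.12 is the lowest among the 2000 strongest windows, where 171 windows are tied and 129 fall inside that limit. This window fell inside only because ties were ordered by chromosome and start. The other, from 20116822 to 20117121, was 300 bp wide, had its summit at 20116867 and scored 1.42, ranks 6238 to 7868. The fourth AP3 window, from 20121887 to 20122047, was 161 bp wide with a score of 1.24 and its summit at 20121887, 563 bp beyond the higher-coordinate end. The strongest window thus scored 7.52 above the next of its region, from which its summit was 3584 bp away.

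PI, the partner of AP3, had the lowest top score of the 5 genes. The gene lies on chromosome 5 from 6829203 to 6831208. Its strongest window, from 6832959 to 6833732, was 774 bp wide with its summit at 6833233, 2025 bp beyond the higher-coordinate end of the gene. The score of 4.81 was shared by 67 windows, ranks 932 to 998 of the list and 220 to 233 of the 3329 windows of chromosome 5. Of 14876 tiles of 8006 bp, the length of the PI region, 6.69% held a window of at least that score.

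A second PI window crossed the lower-coordinate end of the gene, from 6828960 to 6829308. It was 349 bp wide with 106 bp inside the span and its summit at 6828988, 215 bp outside the gene. Its score of 2.36 ranked from 2851 to 3233, below the 2000 strongest. The third, from 6826314 to 6826559, was 246 bp wide with its summit at 6826406, 203 bp inside the limit of the region. It scored 1.61, ranks 5129 to 6230. With 3000 bp on each side, the strongest windows of the class B pair had unlike places and scores. The summit lay 96 bp inside the higher-coordinate end of the gene at AP3 and 2025 bp outside that end at PI. With 1000 bp the strongest PI window was instead the one of score 2.36. Whether the pair differs was not tested.

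AG, on chromosome 4 from 10382917 to 10388272, had 3 windows, and all 3 were among the 2000 strongest of the list. The strongest ran from 10380906 to 10381601, a width of 696 bp, with its summit at 10381253, 1664 bp from the lower-coordinate end of the gene. It scored 12.34, a score of 4 windows, ranks 131 to 134 of the list and 25 of the 2323 windows of chromosome 4. Of 10487 tiles of 11356 bp, the length of the AG region, 1.31% held a window of at least that score.

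The second AG window, from 10386304 to 10386825, lay wholly inside the gene. It was 522 bp wide with its summit at 10386563, 1709 bp from the higher-coordinate end of the span, and scored 9.33, ranks 239 to 248. It was the only window among the 2000 strongest at these 5 genes to lie entirely within a span. The AG span, of 5356 bp, is also the longest of the 5 and leaves the most room for such a window. AG is known to carry regulatory sequence in a large intron; exons and introns were not used here, so the window was not placed relative to them. The third window, from 10390805 to 10391701, was 897 bp wide and scored 4.06, ranks 1232 to 1320. Its summit at 10391413 lay 141 bp outside the region, which it entered only by its first part, with 429 bp outside. The 3 AG summits stood 5310 and 4850 bp apart, the widest spacing of the 5 regions.

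**Figure D2:**
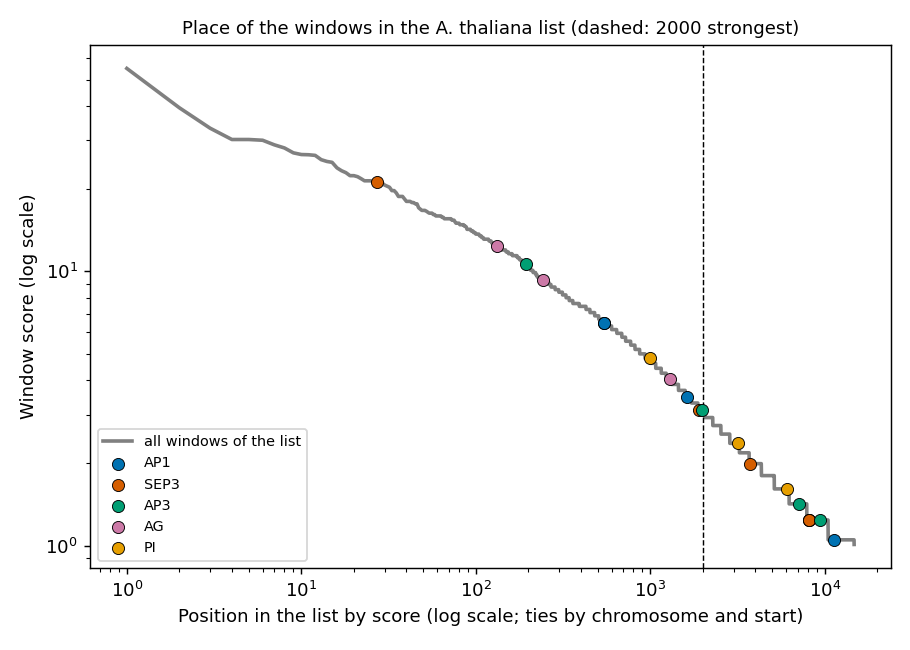
Score of every window of the A. thaliana list against its place by score, both on log axes, with the windows of the 5 genes as coloured points. The SEP3 window at rank 27 stands first, the strongest AG and AP3 windows follow at best ranks of 131 and 192, and 9 of the 20 windows lie right of the dashed line at 2000.

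Most summits lay outside the spans of the 5 genes; whether they lay inside neighbouring genes was not analysed here. Of the 20 summits, 3 were inside a span, 1 each at SEP3, AP3 and AG. Spans made up 33.6% of the length of the regions, and 1 of the 20 summits, at AG, lay outside its region. The share of all summits of the list that lie inside genes was not computed, so the count of 3 is a description. On the higher-coordinate side there were 11 summits, and on the lower-coordinate side 6. Windows touched a span in 6 cases. Of the 15 gaps between neighbouring summits within a region, 9 were 2000 bp or less, and the median gap was 1085 bp. Over the whole list 32.3% of 14702 gaps were that short, with a median of 4070.5 bp. Gaps within a region are limited by its length, which by itself raises the share of short gaps, so neither the shares nor the medians are compared.

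Width rose with score over the list, so each window was set against all windows of the list within 10% of its own score. Of the 20 windows at these genes, 14 were wider than the median of these windows, and the other 6 were not. The margins were small in several cases, among them the strongest SEP3 window, with 797 bp against a median of 790 bp over 18 windows of like score. The AP1 window of 1063 bp was set against a median of 542 bp, and 1.7% of 235 windows of like score were wider. The AG window of 897 bp was set against 466 bp, with 2.95% of 509 windows wider. At SEP3 the window of score 3.12, 819 bp wide, was set against 420.5 bp, with 3.05% of 558 windows wider. The SEP3 window of score 1.99, across the gene end, was 642 bp wide against 300 bp, with 2.12% of 1889 windows wider. At the other end stood the AG window inside the gene, 522 bp wide against 601 bp, with 82.8% of 93 windows of like score wider. The second AP1 window of score 6.5, of 505 bp, was also narrower than the median of 542 bp. No test was made of these widths.

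**Figure D3:**
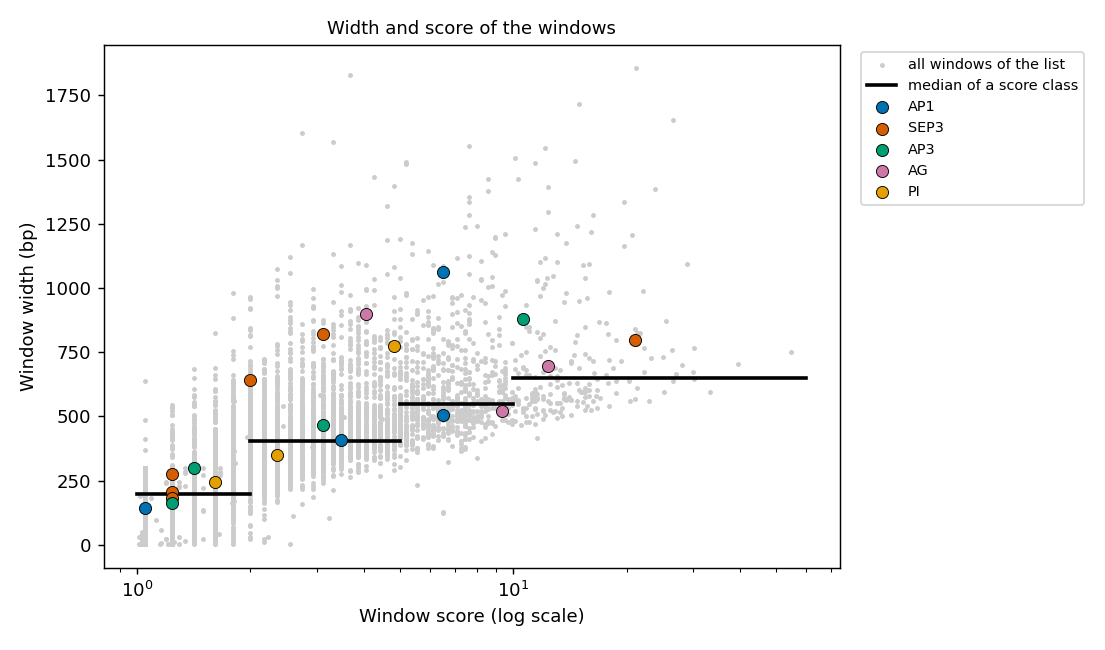
Width in bp against score (log axis) for all windows of the list in grey and for the windows of the 5 genes in colour; black lines mark the median width of 4 score classes. The AP1 window of 1063 bp, the AG window of 897 bp and the SEP3 window of 819 bp lie above the line of their class; width also rises with score within a class.

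For some of the weakest windows the summit position carried no information beyond the edge of the window. In 4 of the 20 windows the summit was given at the first base of the window, against 45.7% of the list. Among windows of score below 2 it was 4 of 8 at these genes, against 60.9% of the list. The 4 were 2 SEP3 windows, 1 AP1 window and 1 AP3 window, with scores of 1.05 or 1.24. None of the 2000 strongest windows of the list had its summit there. For these 4 the distance to a gene is that of the window's lower-coordinate edge.

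Just outside the regions the next windows were weak on the side of AP1, SEP3 and PI that held the strongest windows. The next AP1 window, from 25989395 to 25989612, scored 1.24 and began 293 bp past the limit. The next at SEP3, from 8600073 to 8600290, scored 1.42, and the next at PI, from 6834457 to 6834756, scored 1.8 and began 249 bp past the limit. At AG a stronger window lay farther out. It ran from 10394733 to 10395285, a width of 553 bp, with its summit 6748 bp beyond the higher-coordinate end of the gene. Its score of 12.53 was above the 12.34 of the strongest window of the region, by about 1 step.

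Within 50000 bp of the genes, the SEP3 window of score 21.1 was the strongest in its surroundings. The strongest of 10 other windows there scored 11.59, with its summit 33989 bp from the gene. Around AP3 none of 15 others scored above 10.64, and 1 of them, 49437 bp away, had the same score. Around AP1, 1 of 14 others was stronger than 6.5, with a score of 9.52 at 32658 bp. Around PI, 1 of 15 others was stronger than 4.81, with a score of 8.2 at 16839 bp. Around AG, the window of 12.53 was the only 1 of 17 others above 12.34. How often other windows of like score are the strongest within 50000 bp was not computed, so these counts are a description.

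**Figure D4:**
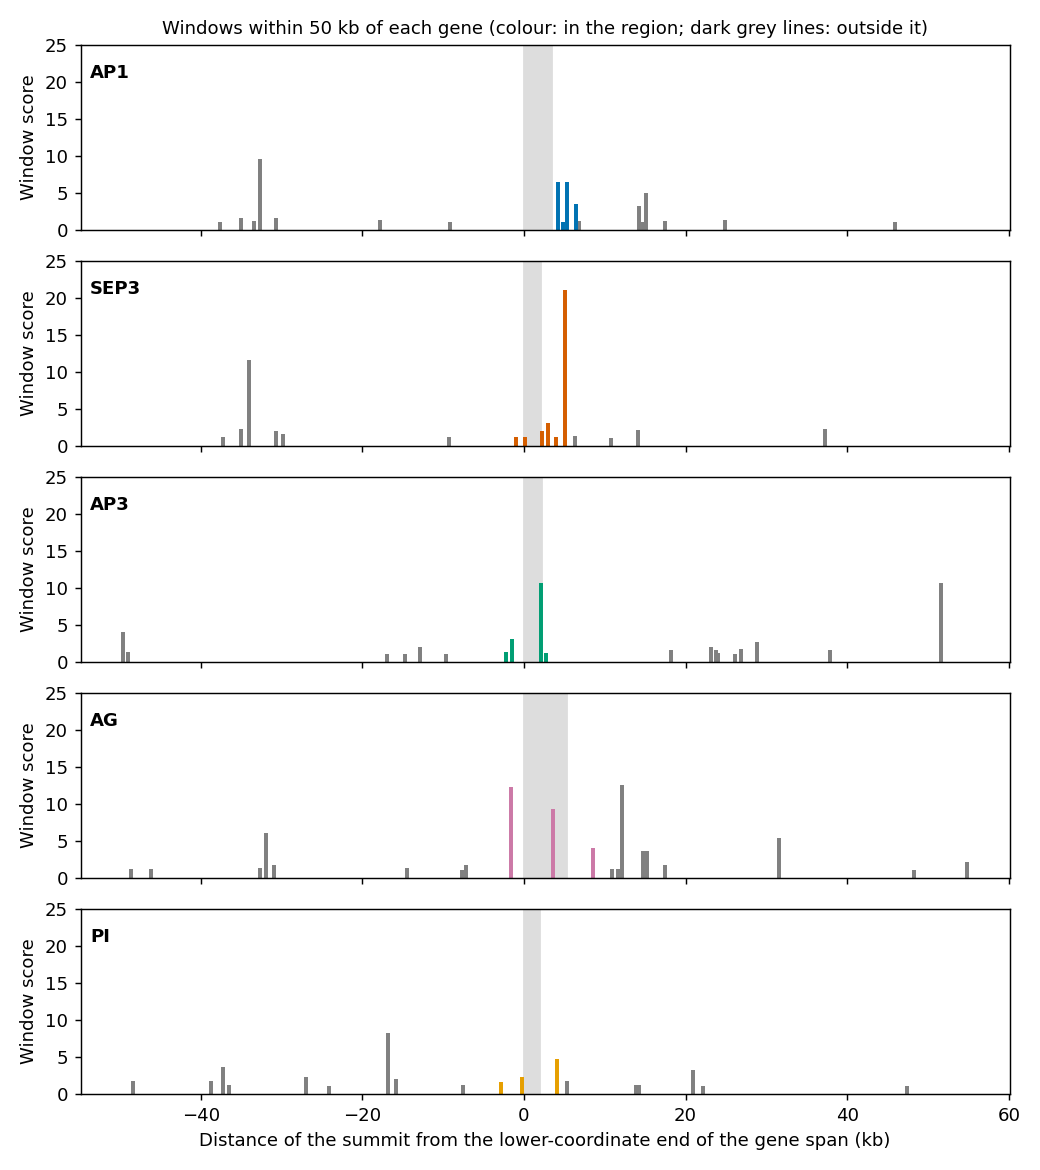
Scores of all windows with a summit within 50000 bp of each gene, against the distance of the summit from the lower-coordinate end of the gene span in kb. Coloured lines are windows of the region, grey lines the others, and the shaded band is the gene; single grey lines stand above the coloured ones at AP1, AG and PI, at scores of 9.52, 12.53 and 8.2.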

How the data were processed

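The A. thaliana list of SEP3 windows is a re-analysis by the authors of earlier samples, per the series' design text. Its score, summit and width are deposited values, per the file headers, and the sources used here do not state how the score was computed, nor the aligner, the peak caller, the control or how samples were combined. The submitters' processing notes for the A. lyrata samples name CASAVA. Read depth is unknown from the list, so no interval was computed.

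The gene spans were given as TAIR10 positions with the definition of the regions, and no A. thaliana annotation was used here. Windows overlapping a span extended by 3000 bp on each side by at least 1 bp were taken. Ties at the limit of 2000 were ordered by chromosome and start. Tiles ran from the first base of each chromosome towards the end of its last window. The partial tile left at that end was dropped. Python 3.11.15, pandas 2.3.3 and numpy 2.4.6 were used, and the overlap and tile counts were checked on simulated windows. All 20 windows of the 5 genes are named. The genes, score classes, limits of like score and measures were chosen with earlier results of these data known. With 1 list there are no replicates, and no test was made. Sequence under the windows and the A. lyrata counterparts of the genes were not analysed here.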

Additional observations from a re-analysis of the deposited data

How the results depend on the processing

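All 5 genes had a window under each alternative run, from the gene span alone to 5000 bp on each side. The number of windows, 20 in the report, was 9 with 1000 bp on each side, 6 with the gene span alone and 13 with the 5000 strongest windows; it was 19 with summits inside the region and 23 with 5000 bp. Genes with a window among the 2000 strongest numbered 4 with 1000 bp (all but PI) and 3 with the span alone (AP1, AP3 and AG). With 3000 bp, 3 genes (SEP3, AP3 and AG) had at least 1 of the 500 strongest. No share of same-length tiles was computed for these alternative settings, so the counts of genes have no background beside them. The top scores of AP1 and AP3 did not move. With 1000 bp the top score was 3.12 at SEP3, 9.33 at AG and 2.36 at PI, and with the span alone it was 1.99, 9.33 and 2.36, since the strongest windows of these genes lie farther out. The order of the 5 genes turned with both settings: AP3 then came first, and SEP3 stood just above PI with 1000 bp and last with the span alone. The settings that follow were chosen after seeing the data. The 5000 bp, summit and 50% settings left the 5 top scores as they were. With windows tied at the limit of 2000 left out, all 5 genes kept such a window with 3000 bp, and 3 had one with 1000 bp (AP1, AP3 and AG), where SEP3 rested on a tied window; of the 11 windows, 9 were left. The comparison with A. lyrata counterparts and its 4 alternatives were not run. No paired analysis was possible because no result here comes from a test. Read depth is unknown, so a region without a further window cannot be read as unbound.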
